A study of Mus musculus with 2 samples.

Results

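The Hox genes, defined here as every gene whose symbol is Hoxa, Hoxb, Hoxc or Hoxd followed by a number in the platform annotation, were described in mouse bone marrow KLS cells. Of the 39 Hox genes in the RefSeq annotation of GRCm38.p6, 33 had a probe set of their own, out of 18193 such genes on the array. Hoxb8 shared its probe set with Hoxb7, and Hoxd4 shared both of its probe sets with Hoxd3. The other Hox genes without a probe set of their own are not analysed here.

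Both samples were total RNA from KLS cells, sorted from bone marrow as lineage-negative, c-kit-positive and Sca-positive cells, a fraction that holds haematopoietic stem cells and early progenitors. The wild type sample came from wild type mice. The other came from mice with conditional inactivation of the TIF1γ (Trim33) gene, labelled TIF1γ Δ/Δ, and the sources used here do not give the Cre driver, age or number of mice. Each genotype was measured on 1 array, so no SD, p-value or replicate check exists for any difference below, and all of them compare 2 arrays.

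Hox genes encode transcription factors that bind DNA through a homeodomain. In mammals they lie in 4 clusters, A to D, and genes with the same number in different clusters are paralogues, with low numbers at the end of the cluster that is expressed towards the head of the embryo. In haematopoietic stem and progenitor cells the A and B clusters are best known, their proteins act with the TALE cofactors of the Meis and Pbx families, and their transcription is maintained by the Kmt2a (MLL) complex and restrained by Polycomb proteins.

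A value is the signal intensity that MAS5, the standard Affymetrix summary, gives for a probe set, a group of short probes for a transcript. The array floor used here is the median signal of all non-control probe sets, with values of 14.4 in wild type and 11.7 in TIF1γ Δ/Δ. A gene is represented by the brightest of its probe sets by mean log2 signal, and differences are log2 values, TIF1γ Δ/Δ minus wild type, after centring. Signals of different probe sets are not levels on a shared scale, so no gene's level is set against another gene's. Signals summed over a marker list add unlike probe sets and serve only to compare the same list on both arrays. Probe sets of a gene that reached the floor on both arrays scattered around their gene mean with an SD of 0.45 (log2, 4534 genes). That figure measures disagreement of probes, not of mice.

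The targeted gene and the identity of the cells were checked on the same arrays. The 2 measured probe sets of Trim33 gave 379 and 172 (log2 -1.12) and 61.0 and 34.5 (log2 -0.80). Ly6a, the gene of Sca, had no probe set of its own. All 7 KLS markers with their own probe set reached the floor on both arrays, against 57.0% of all genes. Their summed signal was 3922 in wild type and 5302 in TIF1γ Δ/Δ, with 6 of 7 above 0 and Procr below (log2 -0.60). Those above 0 included Cd34 (log2 0.76), Kit (log2 0.39) and Gata2 (log2 1.40). The second probe set of Gata2 gave 175 and 193, a log2 difference of only 0.16. Neutrophil and macrophage markers were at least 2-fold lower in 11 of 11 cases, against 6.01% of all genes with a value. Their summed signals were 35962 in wild type and 245 in TIF1γ Δ/Δ. In TIF1γ Δ/Δ 6 of the 11, such as S100a9, Ltf and Vcam1, were under the floor. Of all genes, 3.90% reached the floor in wild type only. All 4 erythroid markers with a value were at least 2-fold lower. The fifth, Hba-a1 (1.17 and 1.99), was under the floor on both arrays and had no value. Sums over the 5 were 902 and 198. The summed B cell markers read 333 and 148, those of T and NK cells 225 and 59.4, and those of stroma and endothelium 215 and 335. Of the latter list only Pdgfrb (118 and 279, log2 1.27) and Cxcl12 (73.8 and 32.4, log2 -1.16) were measured, in opposite directions. The part of these marker shifts in the values of the Hox genes and of the lists below was not tested, and in bulk RNA fewer cells of a type and less RNA per cell cannot be told apart.

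Most Hox genes stayed under the floor. In wild type 9 of 33 reached it, against 60.9% of all genes, and in TIF1γ Δ/Δ 12 of 33 did, against 60.5% of all genes. On both arrays 9 of 33 reached it, against 57.0% of all genes. All 9 Hox genes that reached it in wild type thus also did so in TIF1γ Δ/Δ, as did 10365 of the 11074 such genes in all. They were Hoxa3, Hoxa5, Hoxa9, Hoxa10, Hoxb2, Hoxb3, Hoxb4, Hoxb5 and Hoxc6. Hoxa7, Hoxb6 and Hoxc4 reached it in TIF1γ Δ/Δ only, where the share of all genes doing so was 3.57%. None reached it in wild type only, against 3.90% of all genes. With the higher wild type floor applied to both arrays, 10 Hox genes reached it in TIF1γ Δ/Δ and, of those 3, only Hoxa7 was left. Just above the wild type floor stood Hoxc6 (17.4) and just below it Hoxa11 (11.7). On the TIF1γ Δ/Δ array the neighbours of the floor were Hoxc4 (12.1) and Hoxa4 (7.50).

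Counts varied by cluster. In the A cluster on chromosome 6, 4 of 9 genes reached the floor in wild type and 5 of 9 in TIF1γ Δ/Δ, and the B cluster on chromosome 11 gave the same counts. In the C cluster on chromosome 15 the counts were 1 and 2 of 7. None of the 8 genes of the D cluster on chromosome 2 reached the floor on either array, and the highest signals there were 8.89 in wild type and 7.40 in TIF1γ Δ/Δ, both from Hoxd11. No count was tested, since 33 genes on 2 arrays are not replicates of a condition.

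By position, genes with numbers 1 to 3 reached the floor in 3 of 7 cases on each array. Those with numbers 4 to 8 did so in 4 of 12 cases in wild type and 7 of 12 in TIF1γ Δ/Δ. All 3 genes that reached it in TIF1γ Δ/Δ only thus had numbers in this range, and Hoxc4 has the lowest number of its cluster. Of the 14 genes with numbers 9 to 13, only Hoxa9 and Hoxa10 reached it, on both arrays. In the B cluster the measured genes formed a run from Hoxb2 to Hoxb5 in wild type and to Hoxb6 in TIF1γ Δ/Δ, with Hoxb1 (0.976 and 6.54), Hoxb7 (6.89 in TIF1γ Δ/Δ and lower in wild type), Hoxb9 (7.75 and 6.71) and Hoxb13 (0.949 and 0.915) under the floor on both.

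**Figure D1:**
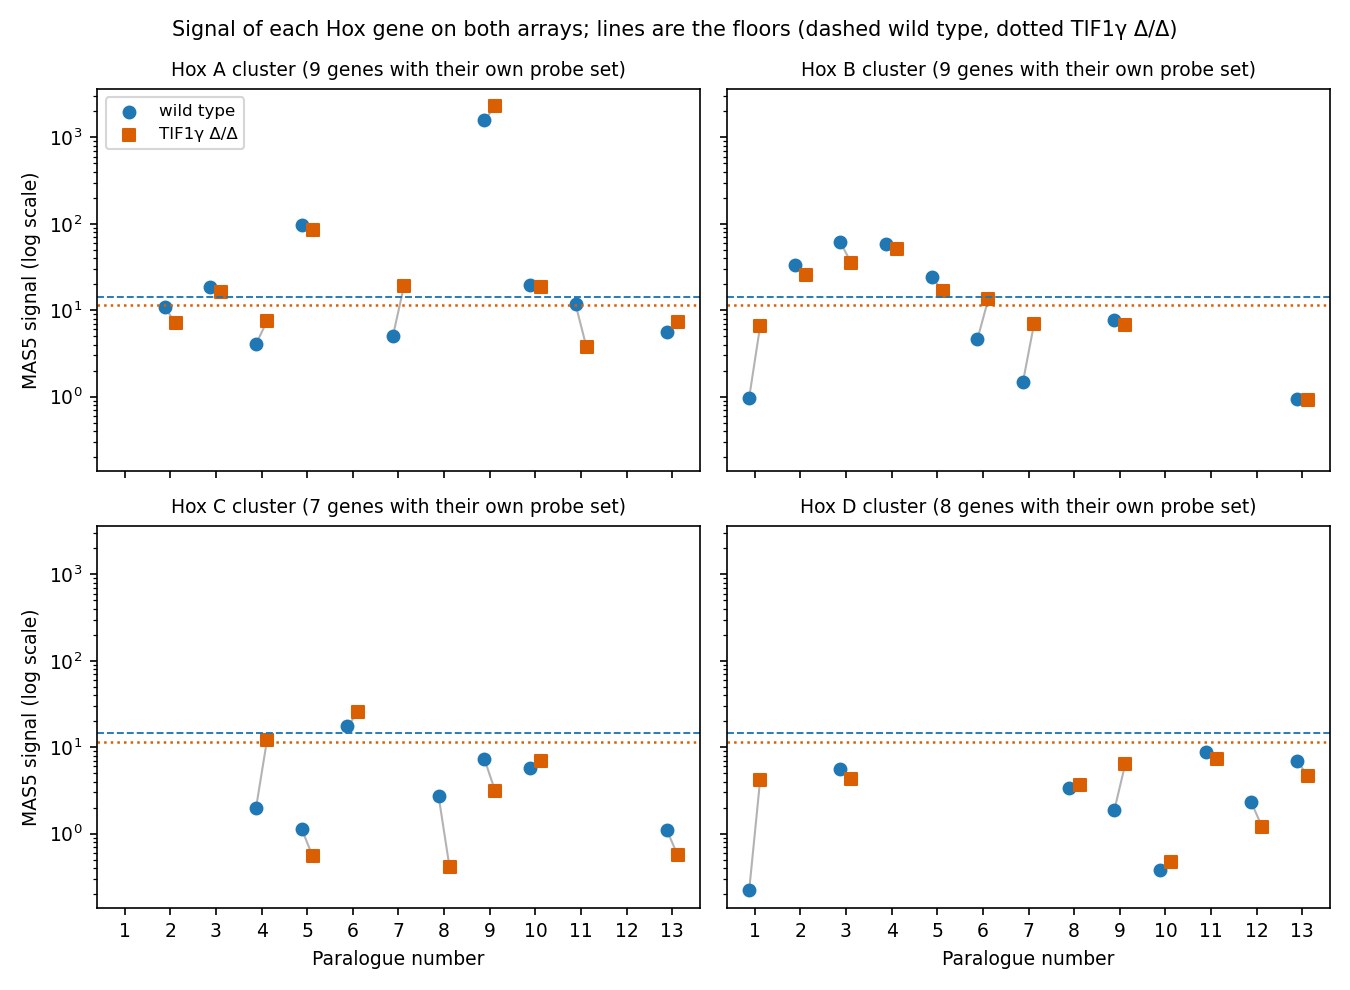
Signal of the representative probe set of each of the 33 Hox genes (log scale) by paralogue number, with a panel for each cluster; circles are the wild type array and squares the TIF1γ Δ/Δ array, joined by a line, and the dashed and dotted lines are the floors of 14.4 and 11.7. Points at or above the line of their own array lie in the A and B clusters up to number 10 and at Hoxc4 and Hoxc6, and all 8 D cluster genes lie below them; heights of different genes are not comparable.

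None of the 12 Hox genes with a value was 2-fold apart in either direction. Over all genes with a value the share was 8.55% (2.53% higher and 6.01% lower). Of the 12, the values of Hoxb6 and Hoxc4 are set by the floors and that of Hoxa7 is a bound. Whether these 3 differ 2-fold cannot be told, so the count holds only for the 9 measured on both arrays. The median difference was -0.17 over the 12 genes and -0.18 over the 9 measured on both arrays. Of those 9, 7 lay below 0 and 2 above. Over all genes the median was 0.00023, and 46.9% of those measured on both arrays lay below 0. Low signals leaned downwards on these arrays: when genes measured on both arrays were divided into 4 equal bins by mean signal, the lowest bin had a median difference of -0.15 with 60.4% of genes below 0, and 6 of the 9 Hox genes were in it. The third bin leaned upwards, with a median of 0.17 and 38.4% of genes below 0. The direction of the Hox median depended on the scaling, with 0.093 after a loess fit of the difference on signal and 0.075 after quantile normalization.

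The spread of all genes gives a scale for the single values. In the lowest bin the 5th and 95th percentiles of the difference were -1.27 and 0.78, in the second bin -0.99 and 0.89, and in the highest bin -0.65 and 0.78. All 9 Hox genes measured on both arrays lay inside the range of their own bin. The 9 differences ran from -0.77 (Hoxb3) to 0.58 (Hoxc6).

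**Figure D2:**
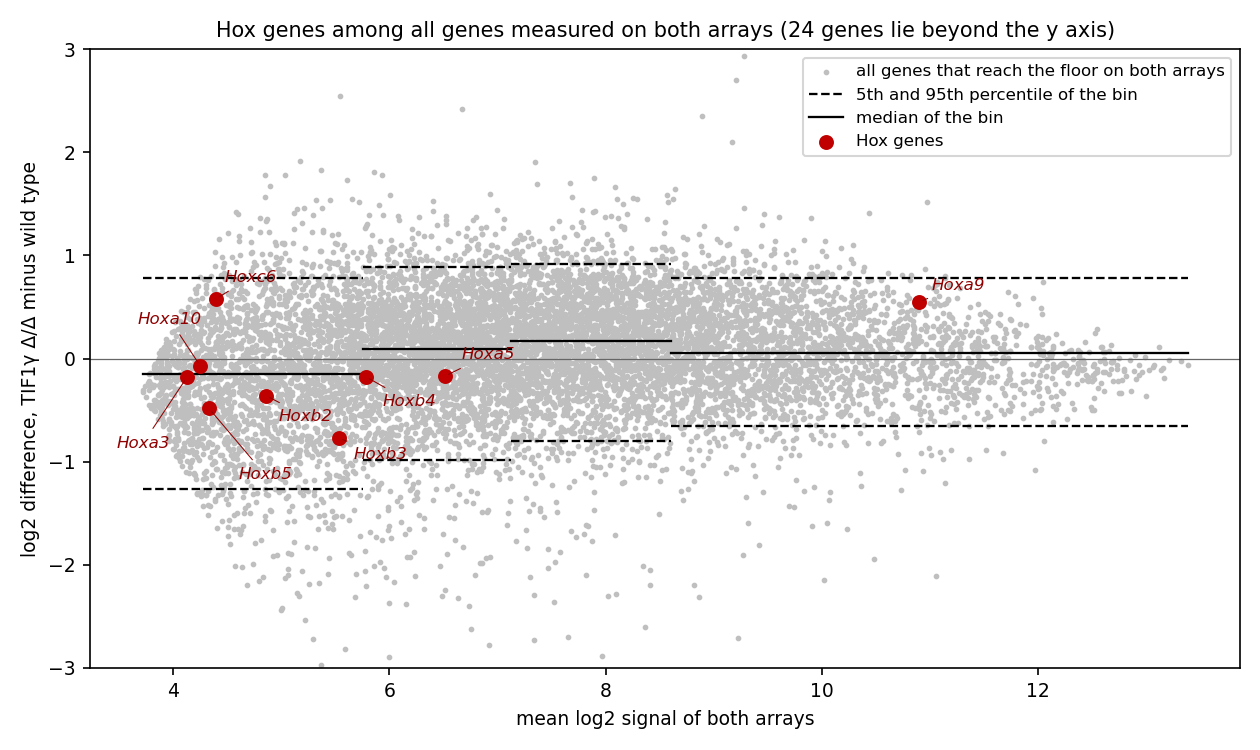
Log2 difference (TIF1γ Δ/Δ minus wild type) against the mean log2 signal of both arrays for all genes measured on both (grey) and the 9 Hox genes (red); solid and dashed lines are the median and the 5th and 95th percentiles within 4 equal bins of signal. Of the 9 Hox genes, 8 lie in the 2 lowest bins and Hoxa9 in the highest, and all are inside the dashed lines; 24 genes lie beyond the axis limits of 3 and -3.

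Hoxa9 promotes self-renewal of haematopoietic progenitors and is overexpressed in many acute myeloid leukaemias. Its representative probe set, 1455626_at, gave 1592 in wild type and 2289 in TIF1γ Δ/Δ, a log2 difference of 0.55 or 1.46-fold. Its second probe set, 1421579_at, gave 41.5 and 47.0 (log2 0.20). Both were higher in TIF1γ Δ/Δ, and the gene stayed above 0 in 9 of 9 alternative settings, from 0.38 to 0.60. Of all genes measured on both arrays, 30.5% differed by at least as much in either direction. No other measured Hox gene lay in the highest bin of signal.

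Hoxa10, the neighbour of Hoxa9 on the 5' side and another regulator of myeloid progenitors, gave 19.7 and 18.4 (log2 -0.070) with 1431475_a_at. Its second probe set stayed under the floor on both arrays (5.95 and 2.69). Without probe sets ending in _x_at, _s_at or _a_at Hoxa10 therefore had no value. A total of 89.7% of measured genes were at least as far apart as Hoxa10. Its sign was not stable, with 0.20 after quantile normalization and 0.15 after loess.

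Hoxa5, which influences the balance of myeloid and erythroid output, was the member whose probe sets disagreed. Its representative, 1443803_x_at, gave 97.6 and 85.3 (log2 -0.17), and 1448926_at gave 32.1 and 49.3 (log2 0.64). The suffix _x_at marks a probe set with probes that can match other transcripts, and without such probe sets Hoxa5 is represented by the second value. No direction can be given for Hoxa5. Hoxa3, a factor of the pharyngeal region and thymus in the embryo, gave 18.8 and 16.3 (log2 -0.18) with 1427433_s_at. The other 3 probe sets of Hoxa3 were under the floor on both arrays. Without probe sets ending in _x_at, _s_at or _a_at it therefore had no value. In the other settings its value turned to 0.096 under quantile normalization and 0.042 under loess.

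Hoxa7, which belongs to the Kmt2a-dependent group with Hoxa9, gave 5.08 in wild type and 19.1 in TIF1γ Δ/Δ. Since the wild type signal was under the floor, the difference is a bound, at least 1.34-fold higher (log2 0.43), from a single probe set. With the floor at the 40th percentile the bound became 1.18 on the log2 scale, the only Hox gene past 2-fold higher in any setting. The remaining A cluster genes, Hoxa2 (10.8 and 7.06), Hoxa4 (4.08 and 7.50), Hoxa11 (11.7 and 3.74) and Hoxa13 (5.64 and 7.24), were under the floor on both arrays and have no difference. The A cluster median over 5 genes was -0.070, and it was 0.20 after quantile normalization and 0.15 after loess.

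In the B cluster all 4 genes measured on both arrays were lower in TIF1γ Δ/Δ. Hoxb3, which acts redundantly with Hoxb4 in stem cell regeneration, gave 61.0 and 35.1 (log2 -0.77, 1.71-fold). Its second probe set, 1427605_at, just reached the wild type floor at 14.5 and gave 1.99 in TIF1γ Δ/Δ. The mean over both probe sets, which takes in this value under the floor, gave -1.33, the only setting in which a Hox gene was 2-fold lower. Of all measured genes, 15.8% were at least as far apart as Hoxb3.

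Hoxb4, known for expanding stem cells when overexpressed, gave 58.9 and 51.3 (log2 -0.18) with 1460379_at. The probe set 1451761_at gave 20.8 and 12.6 (log2 -0.70), so both were lower. Hoxb5, used as a marker of long-term stem cells in mice, gave 23.99 and 16.9 (log2 -0.48) from a single probe set. Hoxb2 gave 33.2 and 25.4 (log2 -0.36), also from a single probe set. The 4 genes did not follow the order of the cluster, since Hoxb3 and Hoxb5 differed more than Hoxb2 and Hoxb4.

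Each of the 4 stayed below 0 in every alternative setting that gave it a value, which was 9 of 9 for Hoxb3 and Hoxb4 and 8 of 8 for Hoxb2 and Hoxb5. After loess the values were -0.70 for Hoxb3, -0.27 for Hoxb5, -0.20 for Hoxb2 and -0.14 for Hoxb4, and the B cluster median moved from -0.36 to -0.20. Hoxb3 and, by a small margin, Hoxb5 were farther from 0 than the probe set SD of 0.45, and after loess Hoxb3 alone of the 4 was. Hoxb6 gave 4.62 and 13.5, which is under the wild type floor on both arrays in value, so no bound can be given in either direction. Hoxb5os, a transcript of the same cluster that is no member and was picked with its value known, read 264 and 165 (log2 -0.66). Its name marks it as opposite in strand to Hoxb5, and RefSeq places it between Hoxb7 and Hoxb6 in order of gene starts.

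In the C cluster Hoxc6 was represented by 1427454_at, which gave 17.4 and 25.6 (log2 0.58). The other 2 probe sets were under the floor in wild type and reached it in TIF1γ Δ/Δ, from 9.74 to 13.1 and from 4.94 to 12.01. All 3 were higher in signal in TIF1γ Δ/Δ, close to the floor, and 27.7% of measured genes were at least as far apart. Hoxc6 was above 0 in 8 of 8 settings, from 0.17 to 0.83. Hoxc4, a gene of lymphoid and early progenitor cells, gave 1.99 and 12.1, which allows no bound, since 12.1 is below the wild type floor. The C cluster median of 0.18 therefore rests on Hoxc6 and on a value for Hoxc4 (-0.23) that is set by the floors.

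By position, the medians were -0.36 over 3 genes with numbers 1 to 3, -0.17 over 7 genes with numbers 4 to 8 and 0.24 over Hoxa9 and Hoxa10. The value of -0.17 is that of Hoxa5, for which no direction can be given. In the same group the values of Hoxb6 and Hoxc4 are set by the floors, and that of Hoxa7 is a bound. Position and cluster were not separated here. Of the 3 genes with numbers 1 to 3, Hoxb2 and Hoxb3 are in the B cluster and Hoxa3 in the A cluster, and no B cluster gene with a number of 9 or more reached the floor. The median for numbers 4 to 8 turned to 0.14 after loess and to 0.054 after quantile normalization.

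**Figure D3:**
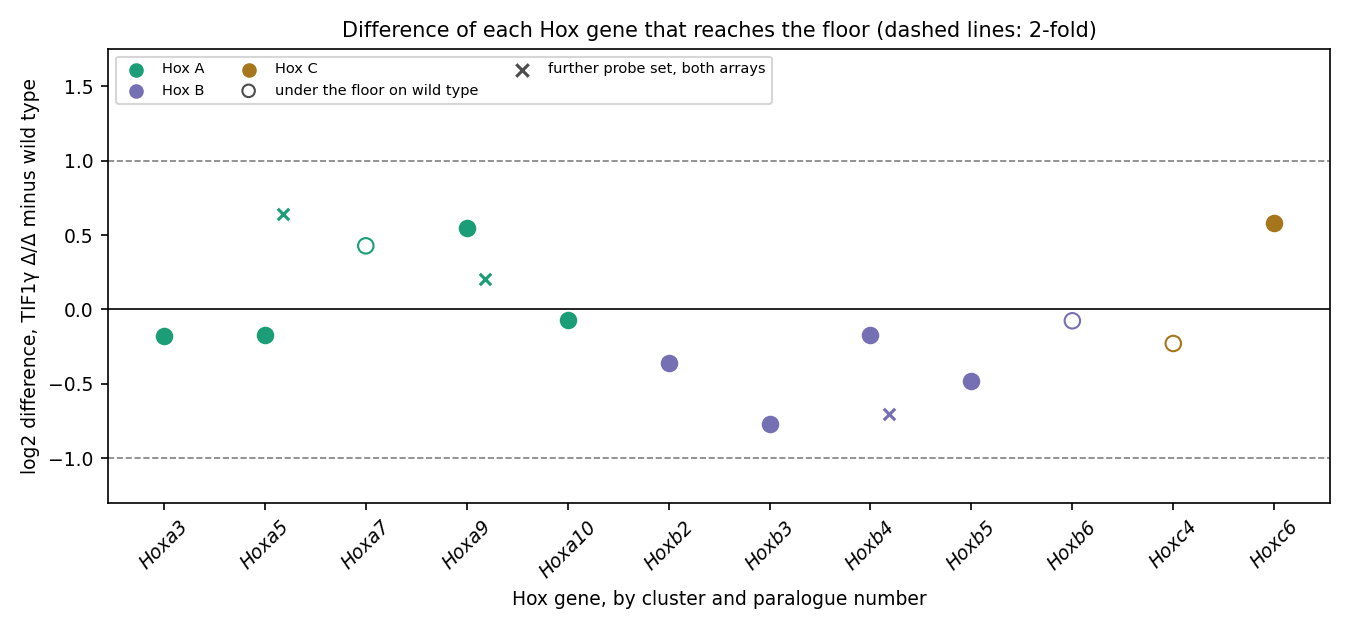
Log2 difference (TIF1γ Δ/Δ minus wild type) of the 12 Hox genes that reach the floor on at least 1 array, ordered by cluster and number. Filled circles were measured on both arrays, and open circles only in TIF1γ Δ/Δ with the wild type signal set to its floor. The open circle of Hoxa7 is a bound, and those of Hoxb6 and Hoxc4 are set by the floors and carry no direction. Crosses are further probe sets of the same gene, shown only where they reached the floor on both arrays. The filled B cluster points and their cross are all below 0, both Hoxa9 points are above 0, the 2 points of Hoxa5 lie on either side of 0, and none crosses the dashed 2-fold lines.

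The 21 Hox genes under the floor on both arrays had wild type signals between 0.220 (Hoxd1) and 11.7 (Hoxa11) and TIF1γ Δ/Δ signals between 0.408 (Hoxc8) and 7.50 (Hoxa4). Besides those named above they were Hoxc5, Hoxc8, Hoxc9, Hoxc10 and Hoxc13 in the C cluster and Hoxd1, Hoxd3, Hoxd8, Hoxd9, Hoxd10, Hoxd11, Hoxd12 and Hoxd13 in the D cluster. With both signals under the floor, these pairs were given no fold. Among all 48 probe sets that belong to a single Hox gene, 13 reached the floor in wild type, 17 in TIF1γ Δ/Δ and 12 on both arrays. By its definition as a median, 50% of all non-control probe sets reach the floor on each array. The share of all probe sets that reach it on both was not computed.

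The promoters of 22 of the 39 Hox genes, with 24 start sites, were in the RefSeq table for GRCm38.p6, and the 250 bases before each start were read from it. They are shown for Hoxa9 and Hoxa5 because these differ in how firmly a direction is seen, for Hoxa7 as the gene with a bound, and for Hoxb4 as the only B cluster gene measured on both arrays with an entry. Each is written 5' to 3' on the strand of the gene, with CpG dinucleotides, the site of DNA methylation and of binding by the Kmt2a CXXC domain, in capitals.
Hoxa9, chr6:52227371-52227620, minus strand: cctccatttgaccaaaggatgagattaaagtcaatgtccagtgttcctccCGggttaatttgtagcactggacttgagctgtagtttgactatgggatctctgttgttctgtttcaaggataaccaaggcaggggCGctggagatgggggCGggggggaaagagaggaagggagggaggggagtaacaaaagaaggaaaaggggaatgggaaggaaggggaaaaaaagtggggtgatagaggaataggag
Hoxa5, chr6:52204588-52204837, minus strand: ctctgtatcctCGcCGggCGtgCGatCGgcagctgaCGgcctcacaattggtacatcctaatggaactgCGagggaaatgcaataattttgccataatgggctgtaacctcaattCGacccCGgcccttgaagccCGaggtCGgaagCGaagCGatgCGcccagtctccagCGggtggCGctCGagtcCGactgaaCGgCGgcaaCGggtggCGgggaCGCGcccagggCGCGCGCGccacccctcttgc
Hoxa7, chr6:52218574-52218823, minus strand: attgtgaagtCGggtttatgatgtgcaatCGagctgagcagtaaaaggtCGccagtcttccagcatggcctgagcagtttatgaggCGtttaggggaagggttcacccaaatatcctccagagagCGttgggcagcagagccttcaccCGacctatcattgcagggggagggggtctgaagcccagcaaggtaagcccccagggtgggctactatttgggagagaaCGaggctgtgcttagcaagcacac
Hoxb4, chr11:96318017-96318266, plus strand: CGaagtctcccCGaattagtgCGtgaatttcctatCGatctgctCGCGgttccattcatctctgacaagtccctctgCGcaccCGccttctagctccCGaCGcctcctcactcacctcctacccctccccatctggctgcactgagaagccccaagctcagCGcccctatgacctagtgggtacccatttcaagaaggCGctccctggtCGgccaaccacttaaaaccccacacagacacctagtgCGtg

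The windows differed in CpG content, with 3 CpG in that of Hoxa9, 28 in that of Hoxa5, 7 in that of Hoxa7 and 14 in that of Hoxb4. Their GC content was 49.6%, 63.6%, 54.8% and 58.0%. Over the 24 Hox windows the median was 12.5 CpG and 58.6% GC, against 6 CpG and 52.4% GC over all 32851 promoters of this length. Windows of Hox genes measured on both arrays had a median of 16 CpG (6 windows), and those of genes under the floor on both a median of 13 (13 windows), and the ranges overlapped, 3 to 28 against 2 to 35 CpG. This is a description, with no test.

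A search of the 24 Hox windows on both strands for 6 motifs found no overlapping matches of different motifs. CCAAT, the box bound by NF-Y, was in 14 of 24 windows (58.3%, against 33.8% of all promoters). CACGTG, the E-box of USF factors, was in 4 (16.7%, against 6.02%), all of them D cluster genes under the floor. TGATNNAT, a joint Hox and Pbx site, was in 4 (16.7%, against 7.68%), TGACAG, a Meis site, in 2 (8.33%, against 15.9%) and TTTATNG, a site of Cdx and posterior Hox proteins, in 2 (8.33%, against 9.81%). GTCTAGAC, the palindromic Smad site, was in none, against 0.167% of all promoters. The 8 windows of the 7 genes with a value here held 3 of these matches, a TGACAG before Hoxa3 and a CCAAT before Hoxa5 and before 1 start of Hoxa10. Those of Hoxa9, Hoxa7, Hoxb4 and Hoxc4 held none of the 6 in these letters.

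For the lists that follow, the values over all genes are 8.55% at least 2-fold apart and, of those measured on both arrays, 5500 of 10365 above 0 with a median of 0.04. List medians also take in genes that reached the floor on 1 array only. Over all genes with a value the median was 0.00023. The share below 0 was 43.0% in the second, 38.4% in the third and 45.9% in the highest bin of signal. Genes above 0 were thus the larger part in each of these bins, and no list was tested against these shares. The TALE cofactors, homeodomain proteins that bind DNA together with Hox proteins, were measured at both genotypes without a 2-fold difference. Of 10 genes with their own probe set, 6 reached the floor on both arrays, 5 above 0 and 1 below, with a median of 0.32. Over 7 genes the median was 0.20. The seventh was Meis3 (7.34 and 11.8), whose value of -0.27 is set by the floors. Meis1, the main partner of Hoxa9 in progenitors and leukaemia, gave 715 and 806 (log2 0.20) with its representative probe set. The other Meis1 probe sets went the other way, with 183 against 63.5 for 1443260_at (log2 -1.50) and 54.7 against 27.6 for 1459423_at, so no direction can be given for Meis1. Pbx3, another leukaemia-associated partner, gave 185 and 153 (log2 -0.25, 2 of 2 probe sets lower), and Pknox1 gave 98.7 and 170 (log2 0.81, 2 of 2 higher). With the mean of all probe sets the median of the list was -0.022, so its sign depended on the choice of probe sets.

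Activators and maintenance factors of Hox transcription had a median of 0.31, with 11 of 17 genes measured on both arrays above 0 and 6 below, and 1 of 17 at least 2-fold apart, against 8.55% of all genes. That gene was Mllt1, the ENL subunit of the super elongation complex and a frequent fusion partner of Kmt2a, at 22.5 and 61.1 (log2 1.46). Its second probe set was under the floor on both arrays (6.47 and 3.09), and the mean of both gave -0.048. Kmt2a itself gave 70.8 and 66.9 (log2 -0.059) and its cofactor Men1 gave 95.6 and 172 (log2 0.87, 2 of 2 measured probe sets higher). Psip1, which tethers the Kmt2a and Men1 complex to chromatin, had a log2 difference of 0.54 with 3 of 3 probe sets higher. Dot1l was at -0.25 and Mllt3 at -0.62, with all 2 and all 3 of their probe sets lower. Cdx1, Cdx2 and Cdx4, the caudal factors that activate Hox genes in the embryo, were under the floor on both arrays.

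The list of repressors of Hox transcription, mainly Polycomb proteins, had a median of 0.14 over 19 genes. It was 0.23 over the 18 measured on both arrays. Of its genes measured on both arrays 12 of 18 lay above 0, against 5500 of 10365 over all genes. None of 19 was 2-fold apart, against 8.55% of all genes, but the value of Cbx7 is a bound. The list also holds Kdm6a (log2 -0.18) and Kdm6b (log2 0.43), which remove the mark that PRC2 sets and so act against Polycomb repression. Of the 3 probe sets of Kdm6b 2 were higher, and the lowest was at -0.66. Ezh2, the histone methyltransferase of Polycomb repressive complex PRC2, gave 938 and 1219 (log2 0.40), Eed had a difference of 0.40 and Suz12 of 0.64 (5 of 6 probe sets higher). Bmi1, the Polycomb subunit needed for stem cell self-renewal, gave 1056 and 1143 (log2 0.14). Gmnn, an inhibitor of DNA replication licensing that also binds Polycomb and Hox proteins, gave 2075 and 1583 (log2 -0.37). Ring1 was at -0.52, and Cbx7 was at least 1.78-fold lower, from 21.1 to a signal under the floor. No test was made of this list.

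Genes reported downstream of Hoxa9 or Meis1 had a median of 0.35, with 16 of 19 above 0. Of the 19, 2 passed 2-fold upwards and 2 downwards, against 2.53% and 6.01% of all genes. The list was not divided by reported activation or repression. Bcl2, which protects cells from apoptosis, gave 175 and 441 (log2 1.36, 4 of 5 probe sets higher), and the transcription factor Mef2c gave 532 and 1067 (log2 1.03, 5 of 5). Cybb, a phagocyte oxidase subunit, gave 391 and 28.9 (log2 -3.74), and Id2, an inhibitor of E proteins, gave 1046 and 207 (log2 -2.31). Cybb is also a gene of mature phagocytes, and Id2 is also expressed in NK and mature myeloid cells. The 11 neutrophil and macrophage markers were all lower on the same array, as were the NK cell genes Klrd1 (log2 -1.93) and Gzma (at least 4.26-fold), and their part in both values was not tested. Without a 2-fold difference were Myb (log2 0.28), Flt3 (log2 0.23), Cd34 (log2 0.76) and Sox4 (log2 0.77, 4 of 6 probe sets higher and the lowest at -3.47).

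The genes in and beside the clusters that are no Hox genes had a median of 0.046 over 11 genes. It was 0.13 over the 10 measured on both arrays. Skap1, next to the B cluster, was at least 2.08-fold lower, from 24.7 to a signal under the floor, and it was less than 2-fold apart after quantile normalization, after loess and under a common floor. Skap2 near the A cluster was at 0.25, but 2 of its 3 probe sets were lower, so no direction can be given for it. Snx10, also near the A cluster, was at -0.018, Smug1 near the C cluster at 0.76 and Mtx2 near the D cluster at -0.086. Evx1 and Evx2, the homeobox genes at the ends of the A and D clusters, were under the floor on both arrays, as was Calcoco2 near the B cluster.

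**Figure D4:**
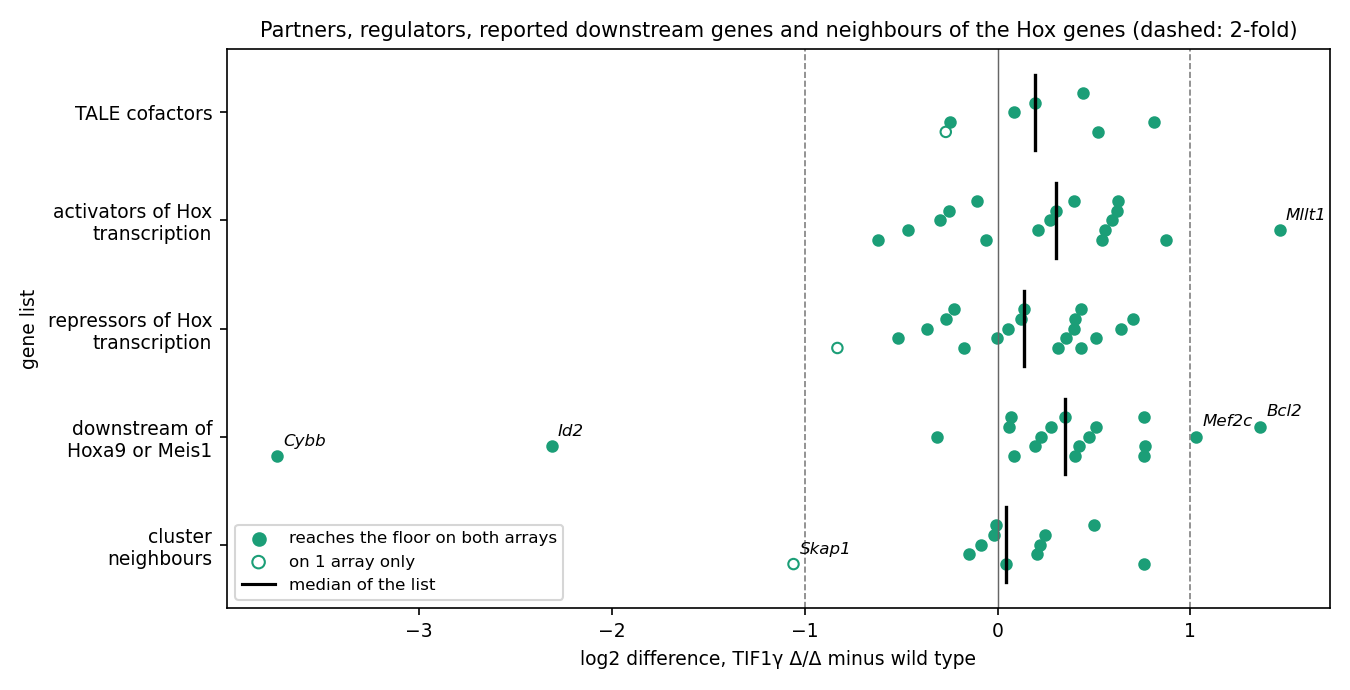
Log2 difference (TIF1γ Δ/Δ minus wild type) of the genes of 5 lists that reach the floor on both arrays (filled) or on 1 array (open, the other set to its floor); the vertical bar is the median of each list and the dashed lines mark 2-fold. Medians lie between 0.046 and 0.35, and the genes beyond the dashed lines are Mllt1, Bcl2, Mef2c, Cybb, Id2 and Skap1.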

How the data were processed

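RNA of KLS cells was labelled with a two-cycle Affymetrix assay, per the labels' protocols. Each deposited value is the intensity of a probe set on a linear scale, computed by the authors; the submitters' processing notes name MAS5, and the sources used here do not give its version or any filter. The mean after trimming 2% at each end was 100.001 on both arrays, so the deposited intensity was already scaled.

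Of 45101 probe sets, 64 controls were left out, and 34945 had 1 gene in the platform annotation. Symbols were updated by Entrez identifier to RefSeq (GRCm38.p6). The difference was centred by the median of probe sets at or above the floor on both arrays (-0.024). A gene under the floor on 1 array took the floor there, which gives a bound only where the other signal exceeds that floor. Counts at 2-fold are by size alone.

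The Hox genes and the gene lists were chosen with earlier results of these data known. By the naming rule every Hox gene is named, and of each list the members at least 2-fold apart (up to 8) or, where none is, the 2 with the largest mean signal. Further list members and Hoxb5os were named with their values seen. Protein sequences were not used here. The procedure was tested on simulated data, with noise below the probe set scatter and changes past 2-fold placed only in genes well above the floor. That test therefore does not bear on Hox genes near the floor or on changes under 2-fold. Alternatives covered scaling, floor, probe set choice, a pseudocount and the threshold. Software was Python 3.11.15, numpy 2.4.6, pandas 2.3.3, statsmodels 0.14.6 and matplotlib 3.10.9.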

Additional observations from a re-analysis of the deposited data

Results flagged for a closer look

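Signals outside the comparisons reached the floor in TIF1γ Δ/Δ but not in wild type in 2 probe sets of the clusters. The probe set 1452493_s_at, shared by Hoxb8 and Hoxb7 and so named for neither, gave 8.81 in wild type and 15.5 in TIF1γ Δ/Δ. The probe set 1443501_at of Gm38462, a long non-coding RNA gene between Hoxd9 and Hoxd8, gave 1.12 and 13.3. It was chosen after its value was seen, and with the wild type floor of 14.4 on both arrays it would not reach it. In the other direction, 1441070_at of Gm15050, a long non-coding RNA gene in the A cluster, reached the floor in wild type only, with 14.6 and 8.51. Across all genes 3.57% reached the floor in TIF1γ Δ/Δ only and 3.90% in wild type only.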

How the results depend on the processing

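A recomputed value counted as unchanged within the probe set SD for a single gene and within 1.5 times for a count. For a median the limit was that SD divided by the square root of its number of genes. Of 466 values recomputed under 12 alternatives, 377 were unchanged by these limits, 88 moved further and 1, a value past 2-fold, changed sign. Counting smaller values too, the sign changed in 35 of 263 log2 differences and medians, Hoxa5 to 0.64 without shared probe sets among them; the common floor and the median over genes measured on both arrays only were added after the data were seen. The cause of a move was not tested unless the alternative itself sets it, such as a higher floor leaving fewer genes. No paired analysis was possible because each genotype has 1 array, and for the same reason no replicate could be left out.

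After quantile normalization the medians were 0.075 for all Hox genes, 0.20 for A, -0.13 for B and 0.054 for numbers 4 to 8. After loess they were 0.093, 0.15 for A and 0.14 for numbers 4 to 8. Of the cluster neighbours, 0 were 2-fold apart under both scalings, with the floor at the 65th percentile, with the mean of all probe sets, with a pseudocount of 16 and with a common floor.

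With the floor at the 40th percentile 1 Hox gene was 2-fold higher, and 1 repressor was 2-fold apart; medians were 0.53 for C, 0.19 for numbers 4 to 8 and -0.21 for numbers 9 to 13. The counts at the floor were 8 for A in TIF1γ Δ/Δ, 1 for D on each array, and 4 and 5 for numbers 9 to 13. At the 65th percentile 4 Hox genes reached the floor on each array and on both, namely 2 of A, 2 of B and 0 of C, or 1, 2 and 1 by position. The median for numbers 1 to 3 was then -0.83, that of downstream genes 0.22, and 0 activators were 2-fold apart.

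With the mean of all probe sets 5 Hox genes reached the floor on both arrays (A 2 and 3, C 0 in wild type, 1 of numbers 1 to 3 in TIF1γ Δ/Δ, 1 of 9 to 13 on each), and 1 was 2-fold lower. Medians were 0.38 for A, -0.84 for numbers 1 to 3, -0.022 for TALE cofactors, 0.068 for activators, 0.25 for repressors and 0.21 for downstream genes; 1 TALE cofactor and 2 downstream genes were 2-fold apart. Mllt1 turned to -0.048.

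Without probe sets ending in _x_at, _s_at or _a_at, A had 2 and 3 genes at the floor and numbers 9 to 13 had 1 on each array. Medians were 0.55 for A, 0.13 for numbers 4 to 8, 0.48 for TALE cofactors (1 at 2-fold), 0.33 for repressors and 0.21 for neighbours. With no floor and a pseudocount of 16 they were -0.032 for all Hox genes, -0.046 for B, -0.089 for numbers 1 to 3 and 0.14 for numbers 4 to 8. At 1.5-fold 1 Hox gene was lower. With a common floor C was at 0.56 with 1 gene at the floor in TIF1γ Δ/Δ, and over genes measured on both arrays C was at 0.58. Over all genes, 297 were 2-fold higher and 705 lower, against 345 and 571 after quantile normalization. The single array per genotype limits every value, and most Hox signals lie near or under the floor.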
